A study of Homo sapiens with 66 samples.

Results

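The effect of ADAR targeting in cells that were also targeted for hnRNPC was measured in 6 of the 66 RNA-seq libraries of the series. All 6 came from whole THP-1 cells, a human monocytic leukemia line, 5 days after nucleofection, an electroporation that brings guide RNA (gRNA) into the nucleus. The cells were of a STING-deficient clone with a Cas9 transgene, kept in medium without further treatment. In 3 libraries the cells had received gRNAs against hnRNPC and ADAR in the same nucleofection (ADAR+hnRNPC-targeted cells). In the other 3 they had received the hnRNPC gRNA and, in place of the ADAR gRNA, a nontarget gRNA (hnRNPC-targeted cells). Both groups therefore shared the STING deficiency, the Cas9 transgene, and the hnRNPC gRNA, and differed in the ADAR gRNA. Nucleofected cells were a mixed population, so a lower level cannot be told apart from fewer cells with that level. Day 5 cells with the ADAR gRNA alone or the nontarget gRNA alone (CTRL), the day 4 groups, CTRL cells treated with IFN-α, and total RNA of a wild-type THP-1 clone were used for comparison.

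ADAR is an enzyme that deaminates adenosine to inosine in double-stranded RNA, and RNA edited in this way is a poor ligand of the cytosolic RNA sensor MDA5. hnRNPC is a nuclear protein that binds uridine tracts in introns and keeps Alu repeats, which can fold into double-stranded RNA, from being spliced into mRNA. MDA5 (IFIH1) and RIG-I act through the adaptor MAVS to start transcription of type I IFN. IFN then binds its receptor and activates the transcription factor complex ISGF3, which turns on many IFN-stimulated genes (ISGs). The comparison asks what the loss of ADAR adds to the transcriptome of hnRNPC-deficient cells.

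The target sites of the gRNAs are shown because they define the groups. They are given as they stand on GRCh37, 5′ to 3′, with the 3 bases of the PAM, the motif that Cas9 needs next to its target, in capitals. Both sites match the plus strand, opposite to the genes' own strand, in coding sequence of HNRNPC (exon 3 of the canonical transcript, chr14:21702284-21702303) and of ADAR (exon 2, chr1:154574128-154574146).
hnRNPC gRNA: gagattcccaatgaatacacGGG
ADAR gRNA: tatatctcgggccttggtaAGG

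ISGF3 binds a DNA element called ISRE, whose core was searched here as GAAANNGAAA on both strands of RefSeq promoters (GRCh38.p14, 250 bases before to 50 after the start). The windows of 4 genes with very large increases are shown, with the match in capitals, on the strand that carries it: CXCL10 (chr4:76023699-76023728, gene strand), IFIT1 (chr10:89392510-89392539, opposite strand), RSAD2 (chr2:6877622-6877651, opposite strand), and GBP1 (chr1:89065316-89065345, opposite strand).
CXCL10: tcatgttttgGAAAGTGAAAcctaattcac
IFIT1: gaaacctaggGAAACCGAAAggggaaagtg
RSAD2: ttccacatgtGAAACTGAAAgttgaaacag
GBP1: agagtaatatGAAACTGAAAgtacttcgtt

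The libraries held 106639720, 118450262, and 122451675 counts on genes in ADAR+hnRNPC-targeted cells and 143268608, 150427487, and 135484351 in hnRNPC-targeted cells. Levels are given in CPM, counts scaled to the size of the library after TMM normalization, and are compared between groups and not between genes, since they are not per length. The 10 most abundant genes held 12.0 to 14.4% of the counts in ADAR+hnRNPC-targeted cells and 16.4 to 17.3% in hnRNPC-targeted cells. THP-1 markers were present. CD33 had 47.6 to 56.7 CPM and the leukocyte antigen PTPRC 357 to 493 CPM over the 6 libraries, while CD68 was near 0. Of 21 markers of lymphoid, epithelial, stromal, endothelial, and erythroid cells, 2 were abundant enough to be tested, and neither was called. The summed level of these 21 markers was 6.06 to 6.71 CPM in ADAR+hnRNPC-targeted cells and 8.55 to 10.2 CPM in hnRNPC-targeted cells, and COL1A2, HBB, KRT14, and NCR1 were at 0 in all 6 libraries.

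The targeted genes were measured first. HNRNPC mRNA was at 391, 376, and 417 CPM in ADAR+hnRNPC-targeted cells and at 312, 323, and 315 CPM in hnRNPC-targeted cells (log2 fold change 0.32, SE 0.058, adjusted p = 1.03e-05, under the threshold for the size of the change). CTRL cells of day 5 had 811, 869, and 818 CPM, so that both groups lay below every CTRL library. ADAR mRNA was at 1165, 1290, and 1509 CPM against 402, 404, and 401 CPM and rose (log2 fold change 1.72, SE 0.082, adjusted p = 4.07e-20). ADAR is itself an ISG, and IFN-α raised it in CTRL cells by a log2 fold change of 1.61. A gRNA cut need not lower the level of an mRNA, so the mRNA does not show the loss of the enzyme. Over 145298 A-to-I sites with at least 10 reads in each of the 6 libraries, 2.60, 2.73, and 2.79% of the reads were edited in ADAR+hnRNPC-targeted cells. In hnRNPC-targeted cells these were 4.82, 4.67, and 4.43%. The groups did not overlap, and editing was lower by 1.93 percentage points (2.71% ± 0.101 against 4.64% ± 0.200, SD, n = 3 each). The exact two-sided permutation test gave p = 0.1, the smallest that 3 against 3 libraries allow. With the ADAR gRNA alone editing was 1.77% ± 0.032, and in CTRL cells 4.35% ± 0.165 (SD, n = 3 each). Within the 7449 sites that lay in introns raised by hnRNPC targeting on day 4, editing was 2.54% ± 0.0642 in ADAR+hnRNPC-targeted and 4.84% ± 0.134 in hnRNPC-targeted cells (SD, n = 3 each).

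Across the transcriptome, changes of 2-fold or more were mostly increases. A gene was called when it moved by 1 or more on the log2 scale in either direction with a Benjamini-Hochberg adjusted p no higher than 0.05 in edgeR's quasi-likelihood test. Of 13193 genes tested, 768 were higher (5.82%) and 88 lower (0.667%), and the median log2 fold change of all genes was −0.04. Without the size threshold, 3870 genes were higher and 4323 lower at an adjusted p of at most 0.05. Among the genes that rose, 685 (89.2%) were protein coding, the median log2 fold change was 1.5 (interquartile range 1.19 to 2.21), and 95 rose by 3 or more. Among the genes that fell, 56 (63.6%) were protein coding, and the median was −1.09. The 3 libraries of each group did not overlap for any of the 768 genes, nor for 87 of the 88, beside 31.9% and 35.1% of all genes with that pattern upward and downward. Without replicate 3 of ADAR+hnRNPC-targeted cells, which had the highest level of many ISGs, 702 genes were higher and 68 lower.

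The largest increases were in ISGs. CXCL10, a chemokine for T cells, was at 345, 388, and 744 CPM in ADAR+hnRNPC-targeted cells and at 0.119, 0.0718, and 0.119 CPM in hnRNPC-targeted cells (log2 fold change 12.21, SE 0.43, adjusted p = 1.73e-24). CXCL11, a ligand of the same receptor, was at 50.8, 57.9, and 99.4 CPM against 2, 8, and 1 counts, so that its fitted value of 11.38 depends on the prior count. It was abundant enough to be tested through the ADAR+hnRNPC libraries, where it was high. IFIT1, which binds RNA with foreign 5′ ends, was at 726, 779, and 1112 CPM against 1.81, 1.06, and 2.57 CPM (log2 fold change 8.92). The 3 ADAR+hnRNPC libraries lay far above the 3 hnRNPC libraries in each of these genes, and replicate 3 was the highest. The 15 largest increases were completed by IFI44L (8.68), OASL (8.08), IFI27 (7.84), IFI44 (7.81), GBP1 (7.80), IFIT2 (7.64), MX1 (7.62), EPSTI1 (6.86), STAP1 (6.81), IFIT3 (6.72), USP18 (6.38), and RSAD2 (6.20). OASL and MX1 encode antiviral effectors, USP18 a protease that removes ISG15 and restrains IFN receptor signaling, and STAP1 an adaptor of tyrosine kinases.

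**Figure D1:**
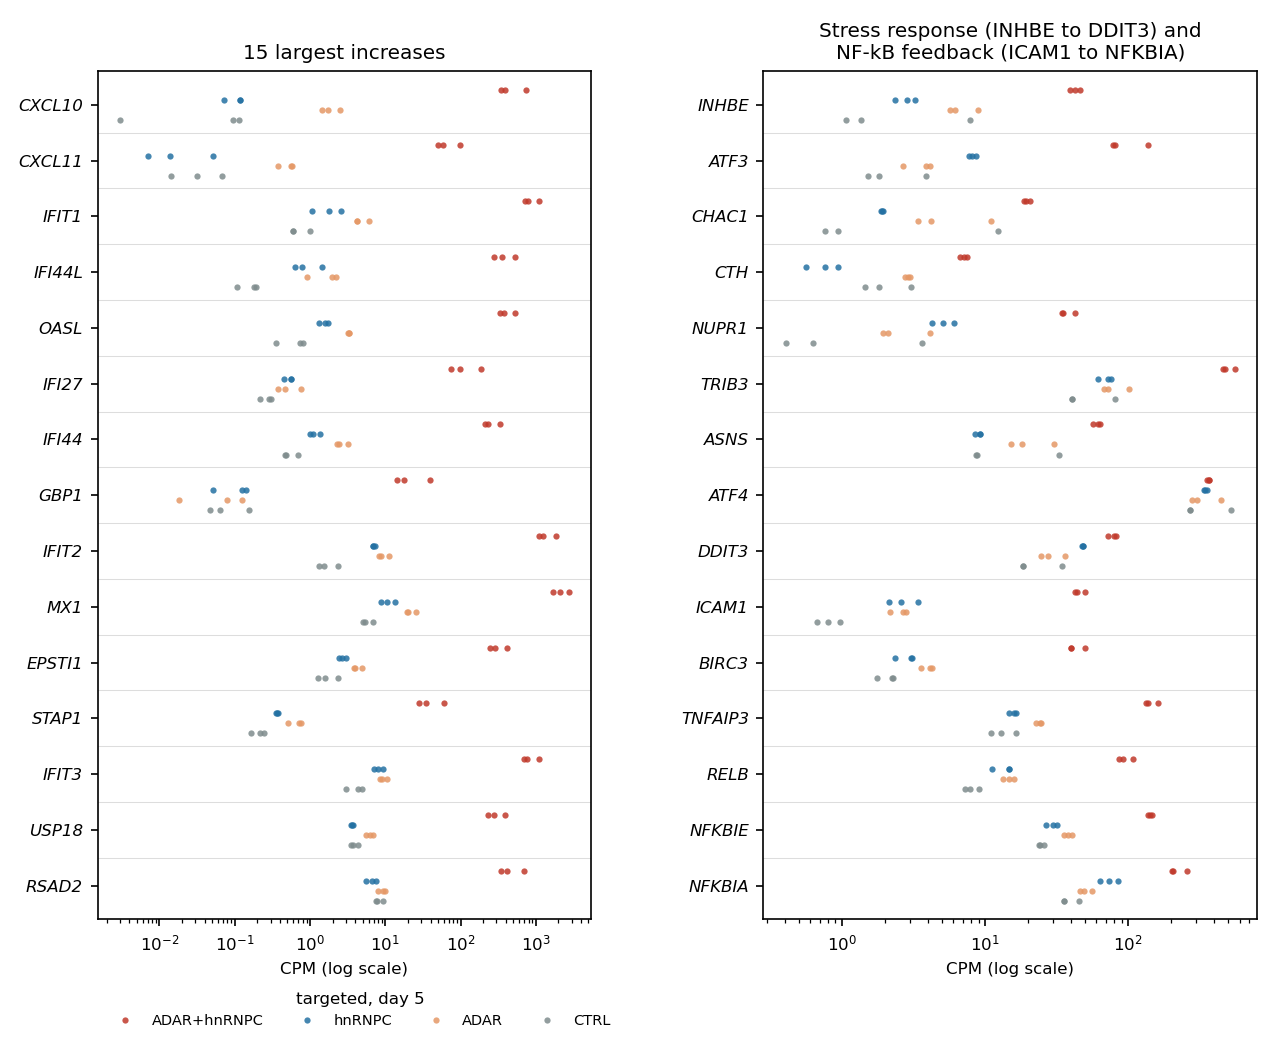
Level of named genes in each library of the 4 day 5 groups (ADAR+hnRNPC, hnRNPC, ADAR, CTRL), with CPM on a log axis and 1 point per library. The left panel holds the 15 genes with the largest increases and the right panel integrated stress response and NF-κB genes, and a value of 0, found for CXCL10 in 1 CTRL library, is drawn at 0.003 CPM. ADAR+hnRNPC libraries lie far above the hnRNPC libraries in the left panel, and ATF4 in the right panel differs little (366, 353, and 369 against 353, 338, and 346 CPM).

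The share of IFN-inducible genes was then counted. IFN-α raised 159 genes in CTRL cells (1.21% of the genes tested), in libraries that the comparison of day 5 does not contain. Of these, 148 (93.1%) were higher in ADAR+hnRNPC-targeted than in hnRNPC-targeted cells and none was called lower, with a median log2 fold change of 2.82. They made up 19.3% of the 768 raised genes and 74 of the 95 that rose by 3 or more. The 11 others included FOSB (log2 fold change 1.23, adjusted p = 0.081) and RPL10. RPL10 had 7.67, 123, and 9.02 CPM against 13.8, 11.8, and 9.75 CPM, so that its log2 fold change of 1.98 (adjusted p = 0.105) came from replicate 2. Of the 15 genes that IFN-α lowered, 3 fell. The remaining 620 raised genes had not been called higher with IFN-α. Their median log2 fold change was 1.39, and 544 (87.7%) were protein coding. The ISRE core stood in the promoter window of 52 of the 108 raised and IFN-α-induced genes with a window in the RefSeq table (48.1%), and of 27 of the 455 other raised genes (5.93%). It was found in 399 of 9853 tested genes (4.05%), in 1 of 54 lowered genes (1.85%), and in 3.57% of all 35116 promoters.

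IFN genes were at or near 0 in hnRNPC-targeted cells, and IFNB1 and IFNL1 were counted in number when ADAR was also targeted. IFNB1, the type I IFN that MAVS signaling induces first, was at 12.9, 12.97, and 26.7 CPM in ADAR+hnRNPC-targeted cells (1478, 1623, and 3517 counts) against 1, 10, and 6 counts. On day 4 the ADAR+hnRNPC libraries had 0.718, 0.762, and 1.24 CPM, and on day 5 the cells with the ADAR gRNA alone 0.190, 0.0595, and 0.348 CPM. IFNL1, a type III IFN, had 186, 273, and 608 counts against 3, 0, and 5 counts. IFNA genes were at or near 0. The filter on the average over all 48 libraries removed the 22 IFN ligand genes before the test. It removed 51 genes with a mean of at least 5 CPM in either group. These had passed the 5 CPM through the group where they were high, so no test is given for them, and in all 51 that group was the ADAR+hnRNPC-targeted cells. ZBP1, a sensor of left-handed double-stranded RNA, was among them with 10.2, 11.8, and 27.1 CPM against 0 counts in all 3 hnRNPC libraries, which was at least 778-fold higher than a floor of 3 counts per library. ZBP1 stayed at 0.0726, 0.176, and 0.174 CPM on day 4 and at 0.132, 0.0981, and 0.0650 CPM in IFN-α-treated cells. The endosomal RNA sensor TLR3 was at 6.11, 7.18, and 11.7 CPM against 0.399, 0.346, and 0.652 CPM, and the DNA sensor AIM2 had 931, 1513, and 2788 counts against 11, 36, and 2 counts.

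The counts of list members below stand beside 5.82% of all genes called higher and 0.667% called lower. At the second share a short list without a lower call is not unusual. Among the cytosolic RNA sensors and their signaling proteins, 6 of 11 tested genes rose, none was called lower, and the median log2 fold change was 1.63. RIGI (chr9:32455300-32526206, GRCh37), which encodes RIG-I, was at 623, 728, and 1065 CPM against 13.95, 13.6, and 14.1 CPM (log2 fold change 5.86, SE 0.16, adjusted p = 8.05e-28). IFIH1 (chr2:163123584-163175194), which encodes MDA5, was at 408, 463, and 639 CPM against 25.1, 25.7, and 24.6 CPM (4.32, SE 0.11, adjusted p = 8.05e-28). The third RIG-I-like receptor gene, DHX58, rose by 4.73, the transcription factor gene IRF7 by 4.26, the RNA-activated kinase PKR (EIF2AK2) by 2.76, and the RIG-I ubiquitin ligase TRIM25 by 1.63. The genes of the shared downstream proteins were not called. MAVS had 26.0, 26.4, and 23.7 CPM against 33.2, 29.1, and 29.99 CPM (log2 fold change −0.28), the kinase TBK1 had −0.22, and IRF3 −0.20. STING1, already mutated in this clone, had 165, 148, and 143 CPM against 213, 186, and 181 CPM (−0.35, adjusted p = 0.0027).

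Of 14 tested genes of IFN receptor signaling 6 rose and none was called lower. Among them STAT2 rose by 2.69, IRF9 by 2.52, IRF1 by 2.08, JAK2 by 1.25, and the feedback protease USP18 by 6.38. The receptor chain gene IFNAR2 had 14.2, 14.2, and 13.1 CPM against 16.2, 16.5, and 15.4 CPM (−0.21). Antiviral effectors rose almost as a whole: 50 of 52 were called higher, with a median of 4.43, and 47 of the 52 were induced by IFN-α. SAMHD1, which depletes deoxynucleotides, was among the 2 that were not called (0.42). ISG15, a ubiquitin-like modifier, was at 541, 633, and 914 CPM against 12.5, 10.1, and 12.2 CPM (5.91).

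Other immune lists moved unevenly. IFN-α had induced 4 of 5 tested guanylate-binding protein genes and 5 of 12 chemokines and cytokines. It had induced 2 of 16 class I genes and 0 of 4 class II genes. All 5 tested guanylate-binding protein genes rose (median 3.12), among them GBP1 with 14.1, 17.6, and 39.2 CPM against 0.126, 0.0522, and 0.140 CPM. GBP1 was near 0 in the other day 5 groups as well. It passed the filter through the group where it was high, so its test carries that limit. Of 12 tested chemokines and cytokines of a list of 34, 9 rose, among them CCL2 (3.59), CXCL8 (3.41), TNFSF13B (4.23), TNFSF10 (3.38), IL1RN (2.91), and IL1B (2.69). Of the 34, 31 were matched to the annotation, and CCL3, CCL4, and CCL5 were not matched and not analyzed. IL18 (0.15) and IL18BP (−0.61) were not called. In class I antigen presentation 4 of 16 rose: the peptide transporter TAP1 (2.66), the peptidase ERAP2 (2.60), the transactivator NLRC5 (1.39), and HLA-E (1.27). B2M, the light chain, was at 1297, 1213, and 1426 CPM against 853, 886, and 759 CPM, under the size threshold (0.66). None of 4 tested class II genes was called. The activation markers CD274 (PD-L1, 4.38), TLR7 (4.40), and SIGLEC1 (4.52) rose among 8 tested. Of 7 tested cytidine and adenosine deaminases 3 rose, namely ADAR, APOBEC3G (1.55), and APOBEC3F (1.53), and ADARB1, the second editing enzyme, had 0.57.

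**Figure D2:**
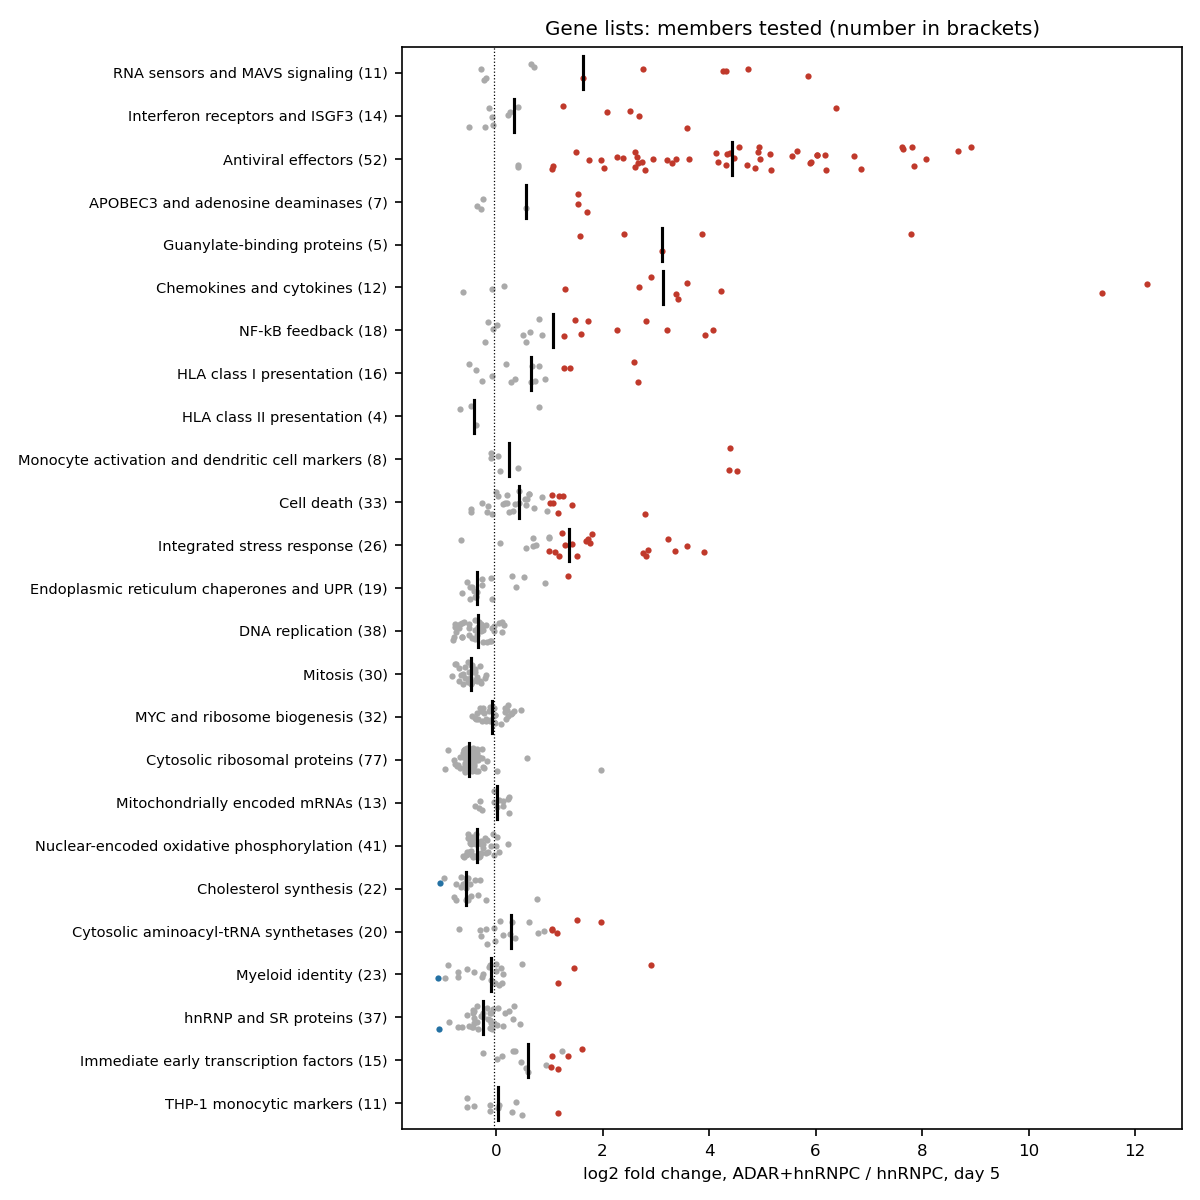
Log2 fold change of ADAR+hnRNPC-targeted against hnRNPC-targeted cells, day 5 (x axis), for the tested members of gene lists (y axis). Each point is a gene, red where called higher, blue where called lower, and gray otherwise, the black bar is the median of the list, and the dotted line is the median of all tested genes (−0.04). Antiviral effectors have the highest median (4.43) of the lists shown, and mitosis and ribosomal protein genes lie mostly below the line (medians −0.47 and −0.50).

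Genes of NF-κB feedback, which are induced by cytokines and by MAVS itself, were raised in part: 9 of 18 tested members were called higher and none lower, with a median log2 fold change of 1.07. None of the 18 was among the IFN-α-induced genes, and 2 members had an adjusted p of at most 0.05 below the size threshold in the other direction. The adhesion molecule ICAM1 was at 42.5, 44, and 49.6 CPM against 2.58, 2.13, and 3.38 CPM (4.07, SE 0.26, adjusted p = 3.03e-16). BIRC3, an inhibitor of apoptosis, rose by 3.93, and the deubiquitinase TNFAIP3 was at 133, 139, and 163 CPM against 16.5, 15.9, and 14.8 CPM (3.20). RELB (2.82), NFKBIE (2.27), NFKB2 (1.72), NFKBIA (1.60), NFKBIZ (1.48), and CYLD (1.28) completed the called members. IFN-α had left ICAM1 at −0.46, BIRC3 at 0.47, and TNFAIP3 at 0.60, none of them called. Of 15 tested immediate early transcription factors 5 rose (KLF10, KLF6, JUN, EGR1, and FOS, by 1.62 to 1.03), and without replicate 3 of ADAR+hnRNPC-targeted cells 2 did.

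The integrated stress response (ISR) is the program that follows phosphorylation of the initiation factor eIF2α by PKR and related kinases and acts through the transcription factor ATF4. Of 26 tested ISR genes 18 rose, none was called lower, and none was induced by IFN-α. The median was 1.37. In 25 of the 26 genes the ADAR+hnRNPC libraries lay above the hnRNPC libraries without overlap, beside 31.9% of all genes. INHBE was at 42.2, 39.3, and 45.7 CPM against 2.36, 2.83, and 3.26 CPM (3.91, SE 0.45, adjusted p = 1.98e-09). Asparagine synthetase (ASNS) was at 63.8, 57.0, and 61.7 CPM against 8.51, 9.17, and 9.19 CPM (2.76), and the glutathione-degrading enzyme CHAC1 at 18.7, 19.3, and 20.5 CPM against 1.89, 1.92, and 1.88 CPM (3.36). For both genes the 3 libraries of a group were close together and far from the other group. ATF3 rose by 3.59, CTH by 3.24, NUPR1 by 2.85, and TRIB3 by 2.82. ATF4 mRNA itself, whose protein is controlled by translation, was at 366, 353, and 369 CPM against 353, 338, and 346 CPM (0.07, adjusted p = 0.67), and DDIT3 was under the size threshold (0.70, adjusted p = 1.47e-04). VLDLR was the member below 0 (−0.66). Of 20 cytosolic aminoacyl-tRNA synthetases, several of which are ATF4 targets, 5 rose: WARS1 (1.97), CARS1 (1.52), GARS1 (1.14), YARS1 (1.06), and MARS1 (1.05). Endoplasmic reticulum chaperones and genes of the unfolded protein response did not move with the ISR list. Of these 19 genes 1 rose (ERN1, 1.35), beside 5.82% of all genes, and the chaperone HSPA5 was at −0.37 (adjusted p = 0.084).

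Genes of cell death were raised in part: 8 of 33 were called higher and none lower, beside 5.82% and 0.667% of all genes. MLKL, which executes necroptosis, was at 123, 134, and 186 CPM against 21.3, 19.3, and 22.8 CPM (2.80, SE 0.094, adjusted p = 6.69e-25). PMAIP1 (1.42), CASP10 (1.26), RIPK1 (1.18), FAS (1.17), TNFRSF10B (1.07), TNFRSF10C (1.04), and RIPK2 (1.01) followed. TNFRSF10B and RIPK2 missed the size threshold without replicate 3 of ADAR+hnRNPC-targeted cells (0.90 and 0.95), RIPK2 also without replicate 3 of hnRNPC-targeted cells (0.98), and TNFRSF10C without their replicate 2 (0.94). The growth arrest and stress genes GADD45B (1.41) and GADD45A (1.37) rose as well. In the list of p53 targets and growth arrest, 2 of 16 tested genes were called higher and none lower, with a median of 0.13. At an adjusted p of at most 0.05, without the size threshold, 6 of the 16 were higher and 3 lower.

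Most members of several housekeeping lists lay below 0, and few of these members passed the size threshold. All 30 tested mitosis genes had negative log2 fold changes (median −0.47), 28 of them with an adjusted p of at most 0.05, and none was called. TOP2A, the topoisomerase of dividing cells, was at 555, 526, and 459 CPM against 777, 883, and 825 CPM (−0.69), and the kinase CDK1 was at −0.50. The summed level of the mitosis genes was 3441 to 3858 CPM in ADAR+hnRNPC-targeted and 5068 to 5453 CPM in hnRNPC-targeted cells. Ribosomal protein genes behaved alike: 73 of 77 were lower without overlap (median −0.50), beside 35.1% of all genes. None was called, and their summed level was 34150 to 40950 CPM against 49040 to 55610 CPM. Genes of DNA replication (median −0.35 over 38), oxidative phosphorylation encoded in the nucleus (−0.36 over 41), and cholesterol synthesis (−0.56 over 22) lay on the same side, with INSIG1, a sterol-regulated brake on this pathway, as the called member (97.1, 88.4, and 122 CPM against 203, 210, and 219 CPM, −1.04). The 32 MYC and ribosome biogenesis genes had a median of −0.07, and the 13 mitochondrially encoded mRNAs 0.02. Under the other scalings the medians stayed below 0, at −0.50 to −0.47 for ribosomal protein and −0.47 to −0.44 for mitosis genes. At an unadjusted p under 0.05 edgeR placed 74 of the 77 ribosomal protein genes and 28 of the 30 mitosis genes lower, and neither DESeq2 nor limma-voom called a member of these 2 lists. In no other list without a lower call by edgeR did DESeq2 or limma-voom call one.

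The genes that fell by most included a copy of the 7SL RNA, RN7SL5P (−2.01), whose reads cannot be told apart from those of its near-identical copies with certainty. Other genes with large decreases were TAS1R3 (−1.57), CNTN1 (−1.41), NT5DC2 (−1.32), LRRC4B (−1.20), GRIN1 (−1.20), and S100A8 (−1.19). NT5DC2 was at 7.70, 7.15, and 7.75 CPM against 20.7, 16.9, and 18.7 CPM (SE 0.093, adjusted p = 4.72e-15). S100A8, a calcium-binding protein of myeloid cells, was at 11.0, 11.3, and 11.9 CPM against 19.7, 23.5, and 35.2 CPM. In the myeloid list of 23 genes, 3 genes rose, among them the differentiation factor KLF4 (1.46) and the integrin ITGAM (1.17), and the progenitor receptor KIT fell by 1.10. The median of the list was −0.09, with 15 members below 0 and 8 above. At an adjusted p of at most 0.05, without the size threshold, 8 members were lower and 4 higher. KIT had 15.1, 14.3, and 10.1 CPM against 28.5, 30.5, and 25.3 CPM and was lowered by IFN-α too (−1.01). Of 37 hnRNP and SR splicing factors, HNRNPA1 was called, with 278, 259, and 214 CPM against 595, 547, and 446 CPM (−1.08), and SRSF1 followed at −0.89. HNRNPA1 and KIT missed the size threshold without replicate 3 of ADAR+hnRNPC-targeted cells (−0.98 and −0.94), S100A8 without replicate 3 of hnRNPC-targeted cells (−0.92), and INSIG1 without replicate 2 of ADAR+hnRNPC-targeted cells (−0.95). HNRNPA1 has processed copies in the genome, and its uniquely mapped counts are uncertain for that reason.

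In cells with hnRNPC the same ADAR gRNA changed far fewer genes, although editing was lower there too (1.77% against 4.35% in CTRL cells). With ADAR targeted alone, 36 genes were higher (0.273%) and none lower than in CTRL cells on day 5 by edgeR. DESeq2 and limma-voom called 0 lower too, and 1833 genes were lower at an unadjusted p under 0.05. Of the 36 genes, 34 (94.4%) were also raised in hnRNPC-deficient cells, where they made up 4.43% of the 768. The test of the difference between the ADAR responses with and without hnRNPC gRNA called 658 genes larger (4.99%) and 154 smaller (1.17%) in hnRNPC-deficient cells. Of the 159 IFN-α-induced genes, 145 had a larger response (median difference 2.63) and 22 had risen with ADAR targeting alone. For IFIT1 the libraries had 726 to 1112 CPM with both gRNAs, 1.06 to 2.57 CPM with the hnRNPC gRNA, 4.18 to 5.997 CPM with the ADAR gRNA, and 0.586 to 0.993 CPM in CTRL cells (difference of the responses 6.20). GBP1 had the largest difference (8.02) and was not called with ADAR targeting alone (0.0183 to 0.127 CPM against 0.0476 to 0.156 CPM). It passed the filter through the libraries with both gRNAs, where it was high. RIGI, IFIH1, and EIF2AK2 had responses of 0.27, 0.23, and −0.02 with the ADAR gRNA alone, none of them called, and differences of 5.59, 4.10, and 2.78. Of the 18 NF-κB genes, 9 had a larger response and 1, ICAM1 (1.64), rose with ADAR targeting alone. Without replicate 3 of CTRL cells 3 rose with ADAR targeting alone.

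**Figure D3:**
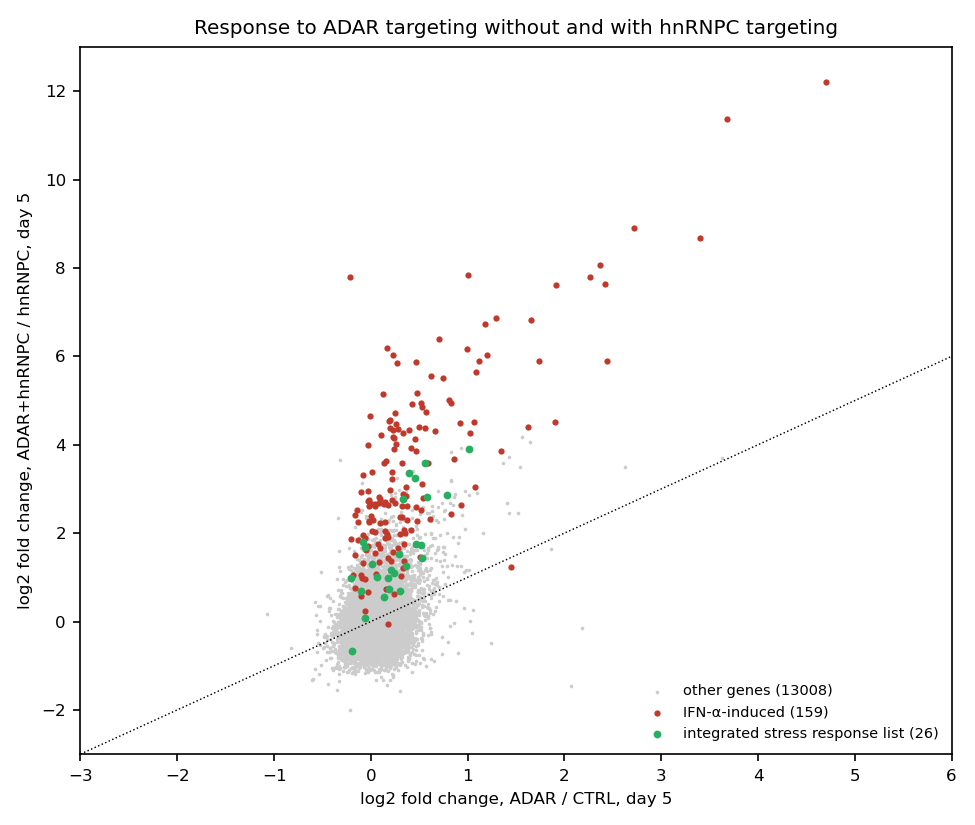
Log2 fold change after ADAR targeting in cells with hnRNPC (ADAR against CTRL, x axis) and in hnRNPC-deficient cells (ADAR+hnRNPC against hnRNPC, y axis), day 5. Points are genes tested, colored for the 159 IFN-α-induced genes and the 26 ISR genes, and the dotted line marks equal responses. CXCL10 lies at 4.71 and 12.21, and most IFN-α-induced genes lie far above the line.

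The ISR difference depended on 2 libraries that are not among the 6 compared. In replicate 3 of CTRL cells and of ADAR-targeted cells ISR genes stood apart from replicates 1 and 2: ASNS had 8.78, 8.66, and 33.0 CPM in CTRL cells and 18.2, 15.1, and 30.4 CPM in ADAR-targeted cells. With all libraries 14 of 26 ISR genes had a larger ADAR response in hnRNPC-deficient cells (median 1.20) and 0 rose with ADAR targeting alone. Without replicate 3 of CTRL cells these counts were 8 (median 0.59) and 6, and without replicate 3 of ADAR-targeted cells 19 and 0. Without both libraries 10 genes had a larger response (median 0.89) and 4 rose with ADAR targeting alone. The number of genes that ADAR targeting alone raised was 61 without replicate 3 of CTRL cells and 44 without both, and the 658 genes with a larger response became 613 in either case. The cause was not tested.

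The response grew from day 4 to day 5. On day 4, 158 genes were higher (1.20%) and none lower in ADAR+hnRNPC-targeted than in hnRNPC-targeted cells, with 2713 genes lower at an unadjusted p under 0.05 and 0 called lower by DESeq2 and limma-voom. Of these, 150 (94.9%) were also raised on day 5, as 19.5% of the 768. The difference between the days was called for 416 genes with a larger response on day 5 (3.15%) and 85 with a smaller one (0.644%). Of the IFN-α-induced genes, 54 were higher on day 4 (median 0.68) and 140 had a larger response on day 5. Of the 52 antiviral effectors, 29 were higher on day 4, among them IFIT1 with 16.9, 20.3, and 41.5 CPM against 0.735, 0.510, and 0.685 CPM. Of the 26 ISR genes 9, and of the 18 NF-κB genes 6, were higher on day 4, among them ASNS (1.31), CHAC1 (2.96), and ICAM1 (3.61). Over all members, 6 of the 26 ISR and 4 of the 18 NF-κB genes had a larger response on day 5. ADAR mRNA itself was not yet raised on day 4 (0.15).

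A second experiment gave the same comparison in other cells. In total RNA of a wild-type THP-1 clone, with other gRNAs against both genes, 2 libraries per group, and harvest on day 4, 495 genes were higher (3.63%) and 73 lower (0.535%) of 13650 tested. Of the genes raised on day 5 here and tested there, 260 of 750 (34.7%) were higher, which was 63.4% of the 410 genes raised there and tested here. The share was 79 of 143 (55.2%) for IFN-α-induced and 181 of 607 (29.8%) for other raised genes. CXCL10 rose by 7.55, ICAM1 by 3.59, INHBE by 3.96, CTH by 2.84, and TNFAIP3 by 3.14, and 34 of 52 antiviral effectors, 9 of 26 ISR genes, and 6 of 18 NF-κB genes were called. Of the genes that fell on day 5, 9 of 61 (14.8%) fell there, among them CNTN1, S100A8, and INSIG1 (−1.15, −1.28, and −1.11). Clone, gRNAs, and day cannot be told apart in this comparison.

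Introns were examined because hnRNPC acts on them, and hnRNPC targeting alone raised 778 introns (3.57%) and lowered 110 (0.505%) on day 4. Of 21798 introns tested, 488 were higher (2.24%) and 301 lower (1.38%) in ADAR+hnRNPC-targeted cells, with a median log2 fold change of −0.23 on library sizes from gene counts. On library sizes from intron counts the median was −0.04, with 740 introns higher and 56 lower, so the number of introns that fell depended on this choice. Of the 345 raised introns inside exactly 1 tested gene, 73.9% lay in a gene that also rose, and 120 in an IFN-α-induced gene. Of 237 such lowered introns, 6 lay in a gene that fell. Introns of IFN-α-induced genes rose with their genes: 120 of 130 were higher, with a median of 2.42 beside 2.46 for the genes. The 778 introns raised by hnRNPC targeting on day 4 were mostly not called when ADAR was targeted as well, with 23 higher, 6 lower, and a median of −0.18. Of the 110 introns that it lowered, 6 were higher and 7 lower. Beside 5.82% of all genes called higher, the genes that hnRNPC targeting changed on day 4 gave the following counts, whose difference was not tested. Of 210 that it raised (1.59%) 40 were higher (19%) and 3 lower here, and of 215 that it lowered (1.63%) 28 were higher (13%) and 2 lower.

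The intron-to-gene ratio, the log2 CPM of an intron minus that of its gene, was used to find introns that moved apart from their gene. Of 15855 introns, 39 had a higher ratio (0.246%) and 310 a lower one (1.96%), with a median of −0.19. Of the 310, 123 (39.7%) lay in a gene that rose, and the median log2 fold change of their genes was 0.87. The intron of NCOA7 at chr6:126211957-126236478 had 3.78, 5.01, and 6.99 CPM against 1.503, 1.66, and 2.19 CPM while the NCOA7 gene rose by 4.02 (difference of the ratio −2.49, SE 0.26, limma adjusted p = 1.44e-08). Introns of PLEKHA2 (−2.12), LRP5L (−2.06), ATF3 (−2.05), TUT7 (−1.94), and THUMPD2 (2 introns, both −1.94) likewise had lower log2 fold changes than their raised genes. Gene counts sum the exons of all transcripts of a gene, so an intron need not belong to the transcript that rose.

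The largest increase of the ratio was in an intron of ACO1 (chr9:32440586-32448893), with 22.0, 31.4, and 48.8 CPM against 1.02, 0.926, and 1.21 CPM (difference 4.76), while the ACO1 gene was at 0.18. RIGI lies on the opposite strand 6407 bases away. The intron of GCA at chr2:163175350-163200597 (18.6, 24.8, and 31.9 CPM against 3.24, 3.39, and 3.12 CPM, difference 1.93) starts 156 bases from IFIH1. Whether reads were counted by strand is not given in the sources used here, so reads of these introns and of their raised neighbors cannot be told apart. Another raised gene lay within 10000 bases of 4 of the 39 introns with a higher ratio (10.3%), 9 of the 310 with a lower ratio (2.90%), and 256 of all 15855 (1.61%). The other introns with the largest increases were in RBM3 (2.03), MAP3K5 (1.86), SAMHD1 (1.81), RACK1 (1.68), PHGDH (1.64), and OAT (1.36). PHGDH, the entry enzyme of serine synthesis and an ISR gene, rose by 1.52 itself, and its intron at chr1:120266065-120269473 had 12.1, 11.2, and 12.2 CPM against 1.38, 1.29, and 1.24 CPM.

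**Figure D4:**
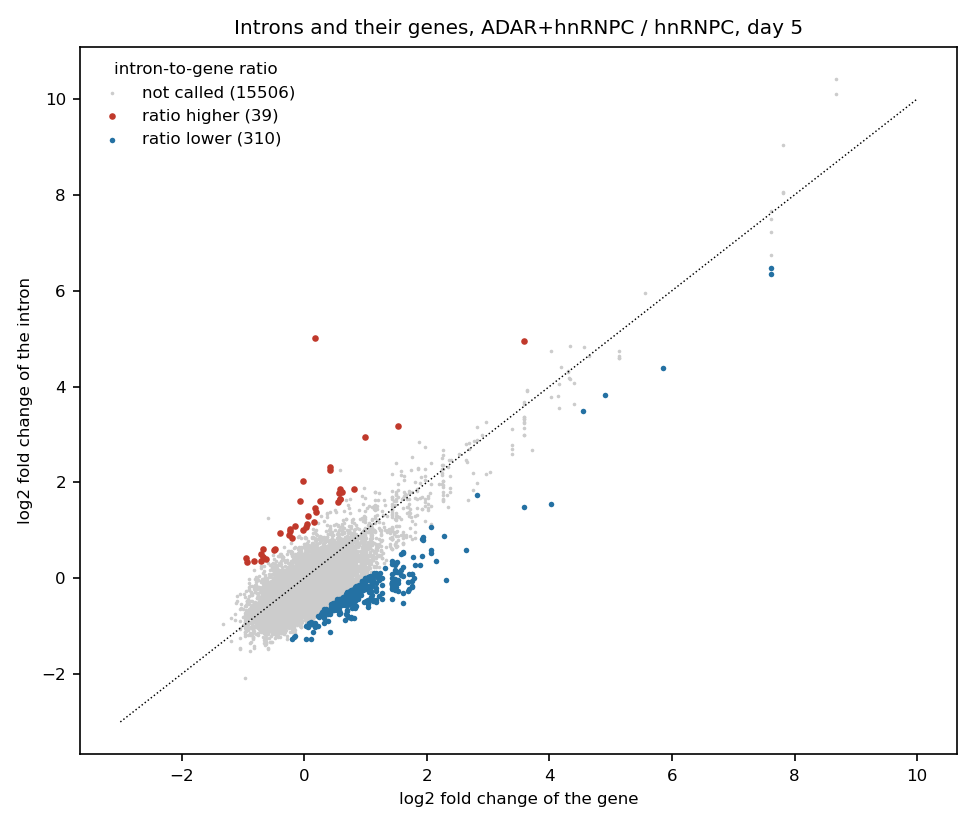
Log2 fold change of the gene (x axis) and of the intron (y axis) in ADAR+hnRNPC-targeted against hnRNPC-targeted cells, day 5, for 15855 introns inside 1 gene, with the dotted line at equal changes. Colors mark the 39 introns with a higher and the 310 with a lower intron-to-gene ratio. The introns with a lower ratio lie below the line, many of them at genes that rose.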

How the data were processed

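Whole-cell RNA of nucleofected THP-1 cells was sequenced after ribosomal RNA depletion, in 3 libraries per group. The labels number the replicates, and the study describes them as independent replicates. Per the labels and the study's methods, the authors aligned reads with STAR 2.5.4a to GRCh37 and deposited counts of uniquely mapped reads per gene, summed over exons, and per intron, with introns cut from gene intervals, and counts of total and edited reads per editing site. featureCounts and bedtools are named in the submitters' processing notes. Whether counting used strand is not given in the sources used here.

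The deposited counts of all 48 libraries of the first experiment were fitted in 1 model with edgeR 4.0.16 (R 4.3.3), with a coefficient per group, TMM factors from all genes, and the quasi-likelihood test. Genes with an average log2 CPM of at least 0.5 (13193 of 57820) and introns of at least 1 (21798 of 197626) were tested. These fits used edgeR's default prior count and Benjamini-Hochberg adjustment. Of the gene IDs, 55538 matched the annotation. The study's own limma-voom test was an alternative (limma 3.58.1), as was DESeq2 1.42.0. The intron-to-gene ratio was tested with limma for 15855 introns inside 1 gene. Editing was compared over pooled reads. The fit recovered known changes when tested on simulated data, with the same dispersion for all genes and changes above the threshold. Changes near the threshold and differences between replicates beyond this dispersion were not simulated. Replicates differed beyond sampling noise (chi-square per gene at least 24.7). The main fit did not pair libraries by replicate number. Same-numbered libraries of ADAR+hnRNPC- and hnRNPC-targeted cells had correlations of 0.26, 0.04, and 0.38. For replicates 1 and 3 the same number gave the highest correlation. For replicate 2 of ADAR+hnRNPC-targeted cells it did not (0.04, beside 0.09 with replicate 1 of hnRNPC-targeted cells). For ADAR-targeted and CTRL cells the same-numbered correlations were 0.25, 0.30, and 0.46.

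Named were the 15 largest and 15 smallest changes among called genes with a symbol, other than pseudogenes, and at least 5 CPM, list members, the 8 largest and 8 smallest differences of the intron-to-gene ratio and of the ADAR response, and the targeted genes. A few genes outside this rule (FOSB, RPL10, IFNB1, ZBP1, and others removed by the filter) were chosen after their values were seen. Members and lists were chosen with earlier results of these data known. Some genes that the rule names are not reported here.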

Additional observations from a re-analysis of the deposited data

Results flagged for a closer look

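The ADAR response differed between hnRNPC-deficient cells and cells with hnRNPC on day 5, by the test of the difference of the responses, for 658 genes with a larger and 154 with a smaller response in hnRNPC-deficient cells. The largest differences on the log2 scale were in GBP1 (8.02), CXCL11 (7.70), CXCL10 (7.51), IFI27 (6.84), IFIT1 (6.20), RSAD2 (6.04), HERC5 (5.79), and OASL (5.71). The smallest were in RN7SL396P (−3.53), TAS1R3 (−1.87), RN7SL5P (−1.79), RN7SL674P (−1.62), MGAT2 (−1.58), NT5DC2 (−1.44), LRRC4B (−1.43), and GRIN1 (−1.42). The 3 RN7SL genes are near-identical copies of 1 RNA, and their counts are uncertain. The calls of RN7SL674P and RN7SL5P ended in several fits that left out a library each (differences as small as −1.36 and −1.41), and that of MGAT2 ended without replicate 1 of hnRNPC-targeted cells (−1.16). CXCL11 and GBP1 had few counts outside the ADAR+hnRNPC libraries, so the size of their differences depends on the prior count. Both passed the filter through those libraries, where they were high. The difference of CXCL10 also rests on low levels (0.0718 to 0.119 CPM in hnRNPC-targeted cells) and had an SE of 1.22.

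The ADAR response in hnRNPC-deficient cells also differed between the days, with 416 genes of a larger and 85 of a smaller response on day 5 than on day 4. The cause of these differences was not tested.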

How the results depend on the processing

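Of 186 genes named or listed, 167 kept their direction and their side of the threshold under every alternative. The direction of RPL10 turned without replicate 2 of ADAR+hnRNPC-targeted cells (log2 fold change −0.50), and its values ran up to 2.48 when other libraries were left out. The numbers of genes called followed the filter most. Without a filter on low counts 1886 genes were higher and 305 lower, 1130 had a larger and 322 a smaller ADAR response in hnRNPC-deficient cells, and 727 had a larger and 199 a smaller response on day 5 than on day 4, as more genes were tested. With an average log2 CPM of at least 2, 46 genes were lower. Introns numbered 1103 higher and 866 lower with the intron filter at a mean log2 CPM of 0, and 740 and 56 on library sizes from intron counts. The intron-to-gene ratio was higher for 4 and lower for 21 introns of an average of at least 3. Of the genes that hnRNPC targeting lowered on day 4, limma-voom called 1 lower here in place of 2. The editing difference was −2.28 percentage points at 30 reads per site and −1.70 as a mean of sites.

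Leaving out each replicate in turn gave 702 to 821 genes higher and 68 to 129 lower (129 without replicate 1 of ADAR+hnRNPC-targeted cells), 145 to 149 IFN-α-induced genes higher, and 130 to 138 list members higher and 2 to 6 lower (6 without replicate 2 of hnRNPC-targeted cells). It gave 419 to 573 introns higher and 209 to 397 lower, 35 to 52 and 291 to 386 ratios, and an editing difference of −2.04 to −1.84. The ADAR response was larger in hnRNPC-deficient cells for 576 to 697 genes and smaller for 90 to 203 (90 without replicate 1 of hnRNPC-targeted cells), and larger on day 5 for 346 to 451 and smaller for 45 to 126 (45 without replicate 1 of hnRNPC-targeted cells of day 5). In the wild-type clone 391 to 553 genes were higher and 88 to 137 lower. With the replicate block 770 genes were higher and 88 lower, 500 introns higher and 293 lower, and 659 responses larger and 157 smaller in hnRNPC-deficient cells. The block raised the genes called with ADAR targeting alone from 36 to 40. By the correlations between libraries, the numbers matched replicates 1 and 3 of the 6 libraries compared, and not replicate 2. The TMM factors from tested genes, the test without the filter for differences of responses, and the fit without 2 libraries were chosen after seeing the data.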
